A study of Homo sapiens with 55 samples.

Results

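Ribosome biogenesis genes were followed through the response of SCL60 cells to the gonadotropin-releasing hormone (GnRH) agonist triptorelin. The set held 50 human genes, chosen by symbol for their place in the pathway, and each detected probe annotated with one of these symbols was taken. These genes, and the other lists given below, were chosen with earlier results of these data known. Their shares beside those of all named genes are therefore descriptions and no independent test. Of the 50 genes, 46 had an annotated probe on the array and 42 had a detected probe, out of 10467 named genes detected in all. The 42 genes were measured by 58 detected probes out of 68 annotated ones. They comprised 5 genes of RNA polymerase I transcription, 2 multifunctional nucleolar genes, 8 genes of small nucleolar ribonucleoproteins (snoRNPs), 17 small-subunit processing genes and 10 large-subunit processing genes. WDR43, DDX18, GNL3 and EBNA1BP2 had no probe in the annotation and were not analysed here. TAF1D, NPM1, UTP20 and RRP1 had probes that were not detected, so 42 genes were tested.

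Ribosomes are built in the nucleolus. RNA polymerase I transcribes the long ribosomal RNA precursor, snoRNPs modify its bases and sugars, and separate sets of helicases, kinases, GTPases and scaffold proteins cut, fold and export the small and large subunits. Demand for these factors rises in growing cells, and many of their genes are known targets of the transcription factor MYC, which binds the sequence CACGTG, called the E-box.

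The cells were SCL60, a HEK293 (human embryonic kidney) derivative stably transfected with functional rat GnRH receptor, and parental HEK293, in which the labels list the receptor as undetectable. Both lines were plated on Matrigel, and SCL60 alone was kept under the selection drug G418; the promoter of the transgene, and whether SCL60 is 1 clone, were not given in the sources used here. Triptorelin (100 nM) was given to SCL60 for 0.5, 1, 2, 8 or 24 h and to HEK293 for 1 or 24 h. Vehicle controls (20% propylene glycol) were SCL60 at 1, 8 and 24 h and HEK293 at 1 and 24 h. Each line also had a control group at 0 h. Each group had 4 arrays except the SCL60 1 h controls, which had 3, giving 55 Illumina bead arrays in 14 groups. Nothing in the labels says that replicates were separate cultures, so p-values measure the spread between these samples, which may be technical.

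Array medians ran from 44 to 75 intensity units and 11766 to 14763 probes were detected per array, with correlations of 0.95 to 0.993 between replicate arrays. Replicates 3 and 4 of the 8 h triptorelin group were the least like the rest of that group. Of the 5 markers taken for the HEK293 line, NEFL, NEFM, INA and VIM were detected on all 55 arrays and PAX2 on 0. All 4 fibroblast markers were detected on 0 arrays, as were PTPRC, CD3E, HBB, LHB, FSHB and human GNRHR, while the blood marker CD14 was detected on 39 arrays.

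Levels below are log2 of background-corrected, quantile-normalised signal, and each gene is given by its brightest detected probe. Differences are triptorelin minus control on this scale, and a gene was said to rise or fall where limma's adjusted p over all 16016 detected probes was under 0.05. Levels of different probes were not set against each other.

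After 8 h of triptorelin, SCL60 cells held more transcript of many ribosome biogenesis genes than SCL60 cells given vehicle for 8 h. In limma's fit 19 of the 42 genes rose, 0 fell and 23 did not pass. The share of all named genes that rose was 11.6%, and the share that fell was 14%. The median difference over the 42 genes was 0.43, against -0.03 over all named genes, and 35 of the 42 differences were above 0. In 12 of the 42 genes (28.6%) every triptorelin array lay above every control array, as in 9.51% of named genes. Since RNA came from whole cultures, less RNA per cell and fewer cells that hold it cannot be told apart in any of these values. By class, 2 of 5 polymerase I genes, 1 of 2 multifunctional nucleolar genes, 3 of 8 snoRNP genes, 9 of 17 small-subunit genes and 4 of 10 large-subunit genes rose. The class medians were 0.29 for polymerase I, 0.70 for the multifunctional pair, 0.26 for snoRNPs, 0.59 for the small subunit and 0.44 for the large subunit; differences between classes were not tested. The polymerase I median was 0.12 without triptorelin replicate 3 and 0.19 without control replicate 1.

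**Figure D1:**
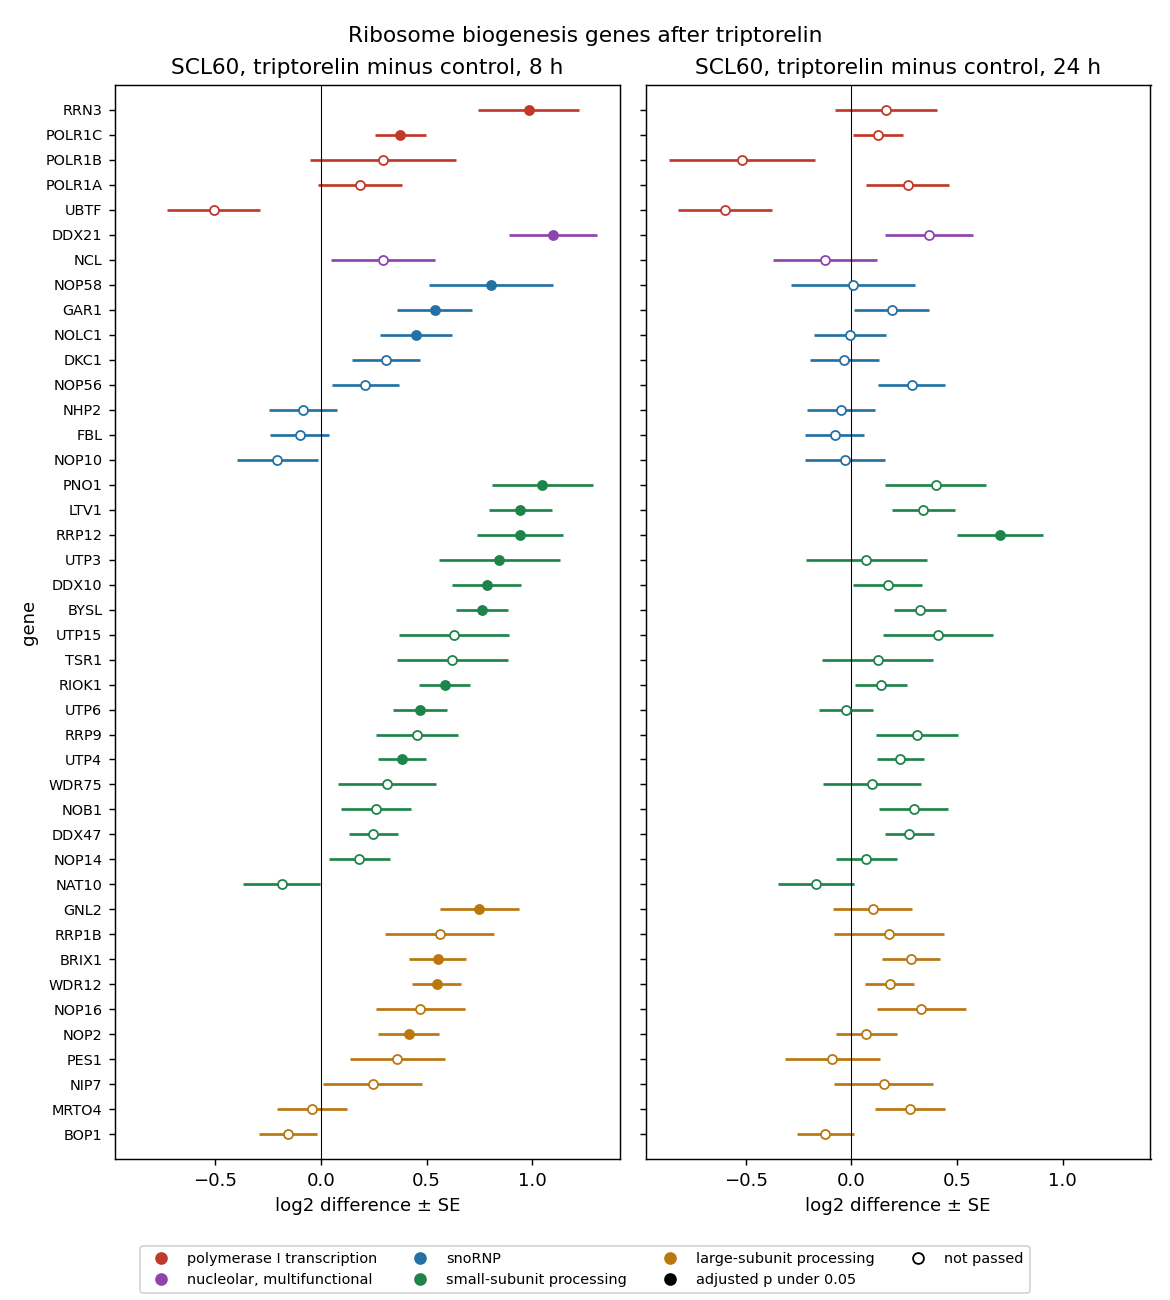
Log2 difference, triptorelin minus control, with its standard error (horizontal axis) for each of the 42 genes (rows, coloured by class) in SCL60 at 8 h (left) and 24 h (right), with 4 arrays per group. Filled points passed an adjusted p of 0.05, which 19 genes did at 8 h and RRP12 alone did at 24 h.

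With the replicate number as a block, 24 genes rose at 8 h and 1 fell, where 16.8% of named genes rose and 19.9% fell. All 19 genes were among the 24, and RRP9, UTP15, TSR1, RRP1B and NOP16 joined them. When the 8 h groups alone were fitted, 10 genes rose. Over all 42 genes the median was 0.41 within hybridisation batch 1 (3 triptorelin and 2 control arrays) and 0.51 within batch 2 (1 and 2 arrays), with 36 differences above 0 in each. Control replicate 1, in hybridisation batch 2, was the only 8 h array in labelling batch 3. Without it the median over the 42 genes, both hybridisation batches together, was 0.38. Without triptorelin replicate 3 at 8 h 18 genes rose, and without replicate 4 the count was 19.

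The plot of cumulative shares sets the 42 genes against all named genes. At 8 h the curve of the members lay to the right of that of all named genes over most of its length, and at 24 h the 2 curves were closer together.

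**Figure D2:**
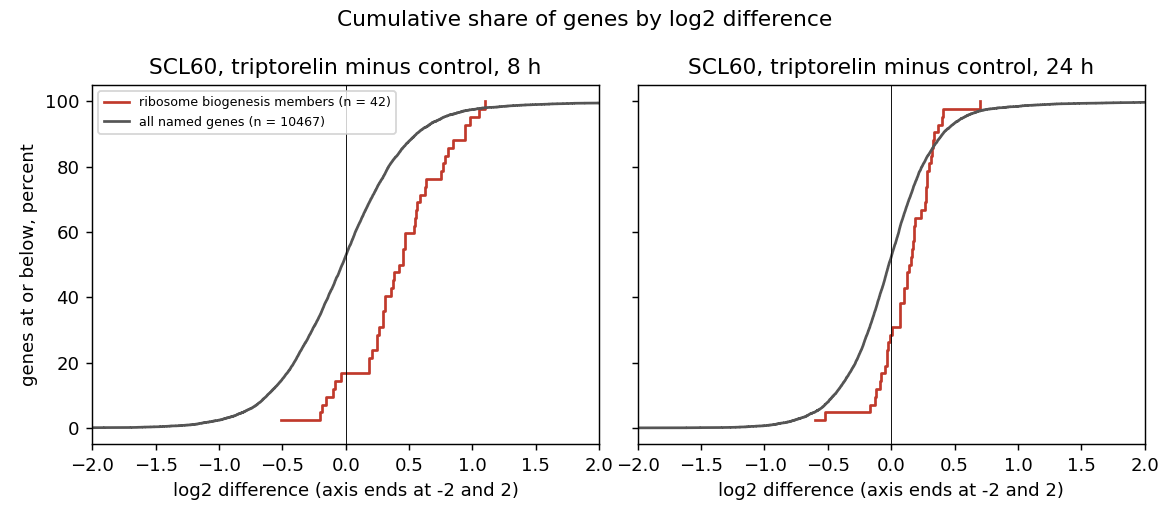
Percent of genes at or below each log2 difference (horizontal axis, triptorelin minus control in SCL60) for the 42 ribosome biogenesis genes (red) and all 10467 named genes (grey) at 8 h (left) and 24 h (right). The medians of the members were 0.43 at 8 h and 0.15 at 24 h, against -0.03 and -0.02 for all named genes.

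Promoter windows from RefSeq (GRCh38.p14), 250 bases before to 50 bases after the annotated start, were at hand for 44 of the 50 genes. The palindrome CACGTG, which reads the same on both strands, was in a window of 19 of the 44 genes (43.2%), against 8.77% of all 27305 genes with a window and 10.9% of protein-coding genes. It was in 8 of the 16 genes with a window that rose at 8 h (50.0%) and in 7 of the 21 tested genes with a window that did not pass (33.3%). Another 2 palindromes were searched, which end in the letters that open CACGTG and can overlap it, though no member held either one together with CACGTG. The cAMP response element TGACGTCA was in 2 of the 44 genes (4.55%, against 2.25% of all genes), and the AP-1 site TGANTCA in 1 (2.27%, against 9.37%). These matches describe letters in a window and not binding. RRN3, DDX21 and GAR1 had 2 windows each, of which 1 is printed, chosen for holding CACGTG where any did. The windows of the gene with the largest rise at 8 h in each class, among genes with an entry, are printed 5′ to 3′ on the strand of the gene, with CACGTG in capitals. They lie at chr16:15094286-15094585 (minus strand) for RRN3, chr10:68956397-68956696 (plus) for DDX21, chr4:109815512-109815811 (plus) for GAR1, chr2:68157638-68157937 (plus) for PNO1 and chr1:37595888-37596187 (minus) for GNL2.
RRN3: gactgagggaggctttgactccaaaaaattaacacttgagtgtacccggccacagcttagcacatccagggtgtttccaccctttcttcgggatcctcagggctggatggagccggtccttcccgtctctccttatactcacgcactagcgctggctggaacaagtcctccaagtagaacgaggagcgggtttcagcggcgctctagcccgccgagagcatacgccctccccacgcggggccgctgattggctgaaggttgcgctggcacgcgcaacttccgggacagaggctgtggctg
DDX21: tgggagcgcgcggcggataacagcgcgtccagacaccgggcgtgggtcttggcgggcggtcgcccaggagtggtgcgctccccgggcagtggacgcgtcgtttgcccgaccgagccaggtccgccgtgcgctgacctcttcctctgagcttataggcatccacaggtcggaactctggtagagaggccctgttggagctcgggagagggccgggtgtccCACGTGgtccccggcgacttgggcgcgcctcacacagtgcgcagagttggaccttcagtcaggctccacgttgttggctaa
GAR1: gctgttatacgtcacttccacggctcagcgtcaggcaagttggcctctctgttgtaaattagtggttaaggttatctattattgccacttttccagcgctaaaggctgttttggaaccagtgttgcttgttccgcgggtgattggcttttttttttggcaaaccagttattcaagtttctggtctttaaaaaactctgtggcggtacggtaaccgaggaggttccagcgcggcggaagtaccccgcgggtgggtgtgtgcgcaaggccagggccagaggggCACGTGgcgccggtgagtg
PNO1: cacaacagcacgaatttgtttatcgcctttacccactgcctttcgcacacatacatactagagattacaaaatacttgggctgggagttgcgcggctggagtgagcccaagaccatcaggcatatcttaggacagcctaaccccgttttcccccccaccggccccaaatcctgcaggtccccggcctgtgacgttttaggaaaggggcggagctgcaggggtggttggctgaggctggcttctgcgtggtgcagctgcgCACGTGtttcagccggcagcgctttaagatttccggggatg
GNL2: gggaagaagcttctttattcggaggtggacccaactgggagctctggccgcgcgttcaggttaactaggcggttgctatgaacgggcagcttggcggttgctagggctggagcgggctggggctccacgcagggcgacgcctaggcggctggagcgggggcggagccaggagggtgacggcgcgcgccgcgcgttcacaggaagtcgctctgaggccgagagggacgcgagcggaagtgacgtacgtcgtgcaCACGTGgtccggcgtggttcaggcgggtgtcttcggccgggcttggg
The E-box began 31 bases before the annotated start in DDX21, and 31, 9 and 3 bases after it in GAR1, PNO1 and GNL2. Neither of the 2 windows of RRN3 held these letters.

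Among the polymerase I genes, the initiation factor gene RRN3 and the subunit gene POLR1C rose at 8 h. RRN3 encodes the factor that brings RNA polymerase I to the ribosomal DNA promoter in a growth-dependent way. Its log2 signals at 8 h were 7.13, 7.32, 7.42 and 6.37 on the triptorelin arrays, against 6.05, 6.69, 5.50 and 6.07 on the control arrays. Triptorelin replicate 4 lay below the highest control array, so the groups overlapped, and the probe was detected on 2 of the 4 control arrays. RRN3 rose, and no fold is given since the control level was only partly measured (difference 0.98 ± 0.24 SE on the log2 scale, limma adjusted p 0.00184). At 24 h its signals were 6.49, 7.19, 6.52 and 5.99 with triptorelin and 6.43, 6.87, 6.00 and 6.23 in controls, a difference of 0.16 (95% interval -0.32 to 0.65). RefSeq names 4 pseudogenes after RRN3, and their part in the signal was not tested.

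POLR1C, a subunit shared by RNA polymerases I and III, had signals of 11.37, 11.05, 10.87 and 11.22 with triptorelin at 8 h, against 10.93, 10.71, 10.57 and 10.78 in controls. Only the lowest triptorelin array fell within the control range. The gene rose 1.30-fold (difference 0.38 ± 0.12 SE on the log2 scale, limma adjusted p 0.0161), and the other POLR1C probe (0.22) missed the threshold. The call was lost without triptorelin replicate 1 (0.30) or control replicate 3 (0.32), and when the 8 h groups alone were fitted. At 24 h the difference was 0.12 (95% interval -0.11 to 0.36). POLR1A and POLR1B, which encode the catalytic core of polymerase I, did not pass at 8 h, with differences of 0.18 and 0.29. The POLR1A probe was dim and was detected on only 33 arrays of the series, so its value cannot show a lack of change. The POLR1B probe was detected on every array.

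UBTF encodes the factor that binds along active ribosomal DNA and keeps it open. Its signals were 7.53, 7.63, 7.22 and 7.42 with triptorelin at 8 h, against 7.65, 7.96, 8.06 and 8.16 in controls. It was the one member whose triptorelin arrays all lay below every control array at 8 h, as in 11.8% of named genes. The difference of -0.51 (95% interval -0.95 to -0.06) did not pass (limma adjusted p 0.0899), and with the replicate block it passed (adjusted p 0.0225). At 24 h UBTF had 7.19, 7.80, 8.06 and 8.17 with triptorelin, against 8.19, 8.08, 8.85 and 8.49 in controls. That difference of -0.60 (95% interval -1.04 to -0.15) had an adjusted p of 0.0809, and 0.0139 with the block. Its other 2 detected probes gave -0.03 and -0.37 at 8 h and did not pass.

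Of the multifunctional nucleolar genes, DDX21 had the largest difference of all 42 members at 8 h. DDX21 is an RNA helicase that acts in both ribosomal RNA transcription and processing. Its signals at 8 h were 12.94, 12.95, 13.21 and 12.52 with triptorelin, against 11.45, 12.05, 11.80 and 11.93 in controls. The groups were well apart, and DDX21 rose 2.14-fold (difference 1.10 ± 0.21 SE on the log2 scale, limma adjusted p 7.5e-05). At 24 h it had 11.58, 12.76, 12.49 and 12.20 with triptorelin, against 11.48, 12.30, 12.09 and 11.70 in controls. These ranges overlapped and the difference was 0.37 (95% interval -0.05 to 0.79).

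NCL encodes nucleolin, an abundant nucleolar RNA-binding protein. Its signals at 8 h were 12.13, 12.71, 13.03 and 11.70 with triptorelin, against 11.46, 12.56, 12.23 and 12.14 in controls, with wide overlap. The difference was 0.29 (95% interval -0.20 to 0.79) at 8 h and -0.13 (95% interval -0.62 to 0.37) at 24 h, and neither passed. NPM1, which encodes the nucleolar chaperone nucleophosmin, had its probe detected on 0 arrays.

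Among snoRNP genes 3 of 8 rose at 8 h. Box C/D particles, which guide methylation of ribosomal RNA, are built on fibrillarin (FBL), NOP56 and NOP58, and box H/ACA particles, which guide pseudouridylation, on DKC1, GAR1, NHP2 and NOP10. NOP58 had signals of 10.26, 10.42, 9.91 and 9.29 with triptorelin at 8 h, against 9.03, 9.76, 8.54 and 9.34 in controls. Triptorelin replicate 4 lay inside the control range. NOP58 rose 1.75-fold (difference 0.81 ± 0.29 SE on the log2 scale, limma adjusted p 0.0396), a call that was lost without triptorelin replicate 1 (0.71), 2 (0.66) or 3 (0.83) or control replicate 1 (0.76) or 3 (0.60). Its 24 h difference was 0.01 (95% interval -0.58 to 0.60).

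FBL, the methyltransferase of box C/D particles, had signals of 12.28, 12.45, 11.80 and 12.14 with triptorelin at 8 h, against 12.06, 12.50, 12.16 and 12.35 in controls. The groups overlapped, and the difference was -0.10 (95% interval -0.38 to 0.18). At 24 h it was -0.08 (95% interval -0.36 to 0.20). NOP56, its partner, gave 0.21 at 8 h and 0.29 at 24 h and passed at neither time, although at 24 h it was the one member with every triptorelin array above every control array, as in 6.29% of named genes.

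GAR1 had signals of 12.34, 12.61, 12.13 and 12.29 with triptorelin at 8 h, against 11.52, 12.12, 11.78 and 11.79 in controls. The lowest triptorelin array lay just above the highest control array. GAR1 rose 1.45-fold (difference 0.54 ± 0.18 SE on the log2 scale, limma adjusted p 0.0207), whereas its other 2 probes gave 0.06 and 0.46 and did not pass. The call was lost without triptorelin replicate 2 (0.45) or control replicate 1 (0.44). DKC1, the pseudouridine synthase of these particles, gave 0.31, NHP2 gave -0.08 and NOP10 gave -0.21 at 8 h, and none of these 3 genes passed.

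NOLC1, a nucleolar phosphoprotein that associates with both kinds of particle, had signals of 9.85, 10.17, 10.59 and 10.32 with triptorelin at 8 h, against 9.41, 10.16, 9.74 and 9.81 in controls. One control array reached the level of the triptorelin arrays. The rise was 1.37-fold (difference 0.45 ± 0.17 SE on the log2 scale, limma adjusted p 0.0475), close to the threshold. The call was lost without triptorelin replicate 2 (0.47), 3 (0.33) or 4 (0.42) or control replicate 1 (0.33), 3 (0.44) or 4 (0.46). At 24 h none of the 8 snoRNP genes passed, and their median was -0.02.

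Small-subunit processing genes had 9 rises at 8 h and 16 of 17 differences above 0. PNO1 encodes an RNA-binding partner of the nuclease NOB1 in the late small-subunit precursor. Its signals were 10.02, 9.83, 9.85 and 9.55 with triptorelin at 8 h, against 8.99, 9.01, 8.48 and 8.56 in controls. No arrays overlapped, and PNO1 rose 2.07-fold (difference 1.05 ± 0.24 SE on the log2 scale, limma adjusted p 0.000838). At 24 h it had 9.72, 9.39, 8.67 and 8.61 with triptorelin, against 8.96, 9.00, 8.57 and 8.27 in controls. Triptorelin replicates 3 and 4 were then within the control range, and the difference of 0.40 (95% interval -0.08 to 0.88) did not pass.

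LTV1, an assembly factor that leaves the small-subunit precursor as it matures, had signals of 10.81, 10.88, 11.29 and 10.68 with triptorelin at 8 h, against 9.92, 10.35, 9.62 and 10.00 in controls. The groups did not overlap. LTV1 rose 1.92-fold (difference 0.94 ± 0.15 SE on the log2 scale, limma adjusted p 3.92e-06). At 24 h it had 10.30, 10.79, 10.39 and 10.12 with triptorelin, against 9.85, 10.30, 10.12 and 9.97 in controls. The 24 h difference of 0.34 (95% interval 0.04 to 0.64) did not pass (adjusted p 0.164), and with the chip as a block it was 0.43 and passed (adjusted p 0.0179).

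RRP12, a HEAT-repeat protein of the small-subunit precursor, was the one gene that rose at both times. It had signals of 9.72, 10.41, 10.17 and 10.06 with triptorelin at 8 h, against 8.69, 9.29, 9.41 and 9.19 in controls. All 4 triptorelin arrays lay above the controls, a 1.92-fold rise (difference 0.94 ± 0.20 SE on the log2 scale, limma adjusted p 0.000426). At 24 h the signals were 9.33, 10.10, 10.28 and 10.04 with triptorelin, against 8.77, 9.47, 9.39 and 9.31 in controls. Replicate 1 of the triptorelin group then lay within the control range. The 24 h rise was 1.63-fold (difference 0.70 ± 0.20 SE on the log2 scale, limma adjusted p 0.0177), and it was 0.75 within hybridisation batch 1 and 0.56 within batch 2. Its call was lost without triptorelin replicate 2 (0.65) or 3 (0.59) or control replicate 1 (0.55), and when the 24 h groups alone were fitted (adjusted p 0.0921).

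The other 6 small-subunit genes that rose at 8 h were UTP3, DDX10, BYSL, RIOK1, UTP6 and UTP4. UTP3, UTP4 and UTP6 belong to the early small-subunit processome, and their differences were 0.84, 0.38 and 0.47. DDX10, an RNA helicase, rose by 0.79, BYSL, which encodes the assembly factor bystin, rose by 0.76, and RIOK1, an atypical kinase of late maturation, rose by 0.59. Triptorelin and control arrays did not overlap for any of these genes except UTP3. UTP15, TSR1 and RRP9 gave 0.63, 0.62 and 0.45 with adjusted p-values of 0.0728, 0.0799 and 0.0808. TSR1 had another, dimmer probe that rose (0.67), detected on as few as 1 of the 4 arrays of a group. WDR75, NOB1, DDX47 and NOP14 gave 0.31, 0.26, 0.25 and 0.18 and did not pass.

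NAT10, which acetylates the small-subunit ribosomal RNA, was the only one of the 17 with a difference below 0 at 8 h. Its signals were 10.58, 11.03, 11.03 and 10.97 with triptorelin, against 10.69, 11.35, 11.12 and 11.20 in controls. The groups overlapped, and the difference was -0.19 (95% interval -0.55 to 0.18). It was -0.17 at 24 h and did not pass.

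**Figure D3:**
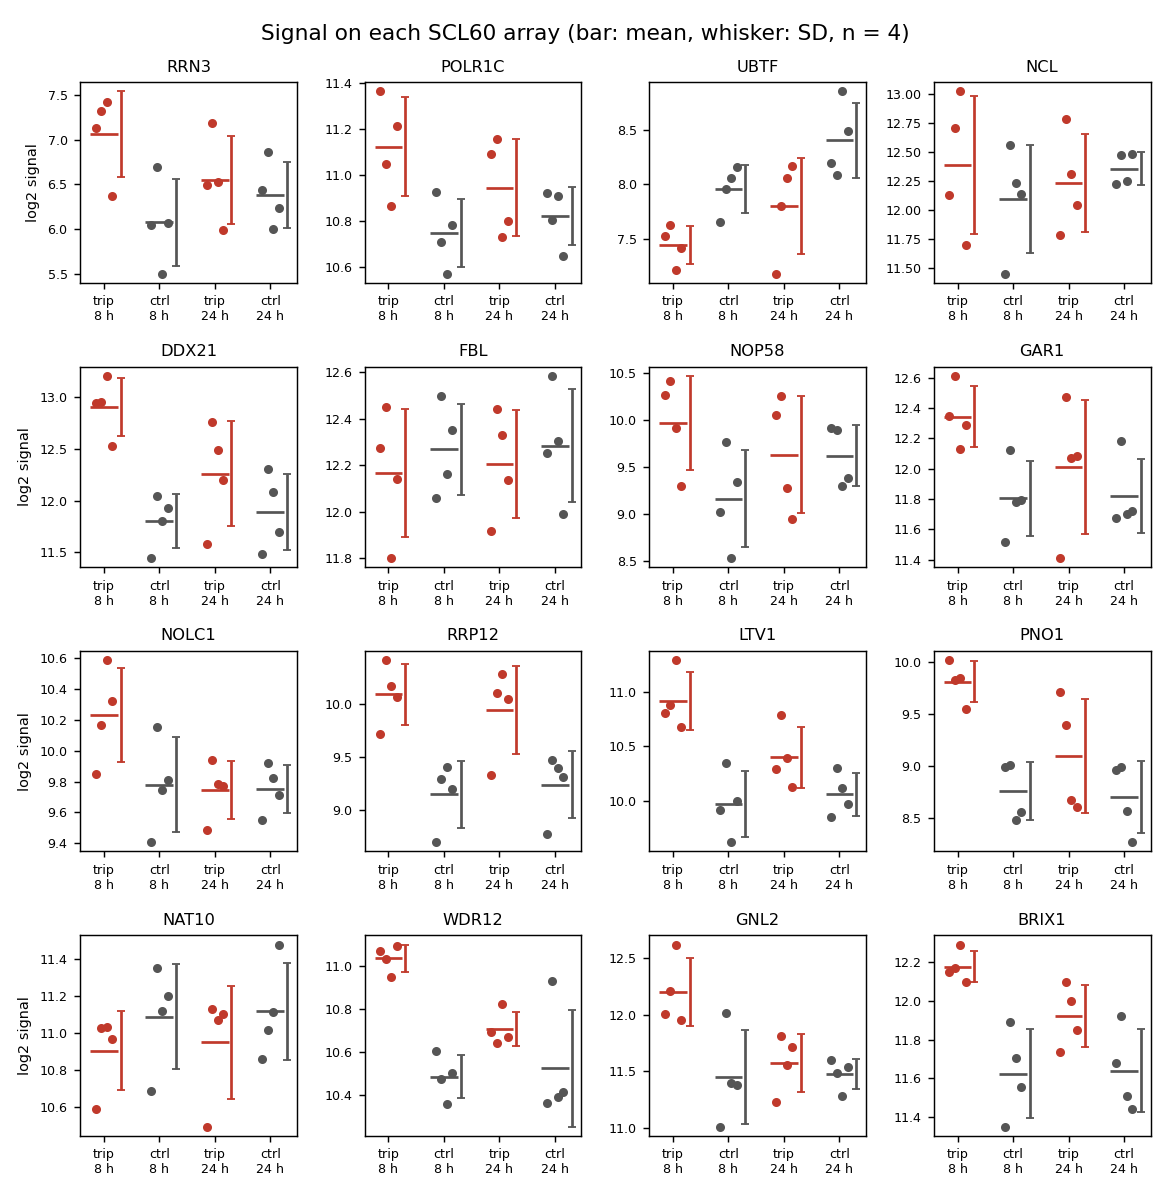
Log2 signal (vertical axis) on each SCL60 array of 16 genes, for triptorelin (red) and control (grey) at 8 h and then at 24 h. Points are arrays, long bars are means and whiskers are SD (n = 4). At 8 h the 4 triptorelin arrays of DDX21, GAR1, RRP12, LTV1, PNO1, WDR12 and BRIX1 sit above every control array, and those of UBTF sit below.

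The plot of single arrays puts these 16 genes side by side. In 7 of them every 8 h triptorelin array lay above every control array, though only just for GAR1. Among named genes 9.51% were so placed at 8 h and 6.29% at 24 h. Among all 42 members 12 (28.6%) were so placed at 8 h. Most of the 16 genes were picked for large differences that passed, so the 7 cannot be set against these shares. In each of those 7 the groups overlapped at 24 h. The 7 were picked by their 8 h values, so this overlap is no measure of a lost effect.

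Large-subunit processing genes rose in 4 of 10 cases at 8 h. GNL2 encodes a nucleolar GTPase whose yeast relative acts before export of the large-subunit precursor. Its signals at 8 h were 12.01, 12.21, 12.62 and 11.96 with triptorelin, against 11.01, 12.01, 11.39 and 11.37 in controls. One control array, replicate 2, reached the triptorelin range. GNL2 rose 1.68-fold (difference 0.75 ± 0.19 SE on the log2 scale, limma adjusted p 0.0023), and its 24 h difference was 0.10 (95% interval -0.28 to 0.48).

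BRIX1, whose yeast relative assembles the early large-subunit precursor, had signals of 12.15, 12.17, 12.29 and 12.10 with triptorelin at 8 h, against 11.35, 11.89, 11.70 and 11.56 in controls. The groups were apart on this probe. BRIX1 rose 1.47-fold (difference 0.55 ± 0.14 SE on the log2 scale, limma adjusted p 0.00186), and its other probe rose by 0.60. At 24 h the difference was 0.28 (95% interval 0.01 to 0.55), with an adjusted p of 0.21.

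WDR12, PES1 and BOP1 form one complex needed to process the large-subunit ribosomal RNA, and of these WDR12 alone rose at 8 h. WDR12 had signals of 11.07, 11.03, 10.95 and 11.09 with triptorelin at 8 h, against 10.60, 10.48, 10.36 and 10.51 in controls. These arrays did not overlap, and WDR12 rose 1.46-fold (difference 0.55 ± 0.11 SE on the log2 scale, limma adjusted p 0.000301), with a rise of 0.45 on its other probe. PES1 gave 0.36 (95% interval -0.09 to 0.81) and BOP1 gave -0.15 (95% interval -0.43 to 0.12), and neither passed; differences between the 3 genes were not tested. NOP2, a methyltransferase of the large-subunit ribosomal RNA, rose by 0.42 (adjusted p 0.0297). RRP1B, NOP16, NIP7 and MRTO4 gave 0.56, 0.47, 0.24 and -0.04 and did not pass.

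At 24 h RRP12 was the only gene of the 42 that rose, 0 fell and 41 did not pass. Among named genes 5.03% rose and 5.94% fell at that time. At an unadjusted p under 0.05, 6 members were higher and 1 was lower. Of the 10467 named genes, 1131 were higher and 1398 lower at that p. The member median was 0.15, with 30 of 42 differences above 0, against -0.02 over all named genes. Class medians were 0.12 for polymerase I, 0.12 for the multifunctional pair, -0.02 for snoRNPs, 0.23 for the small subunit (15 of 17 above 0) and 0.16 for the large subunit. Without triptorelin replicate 2 the member median was 0.068, and the first 2 class medians turned to -0.049 and -0.055, with -0.097 for snoRNPs and 0.052 for the large subunit. Apart from the small-subunit median, which ran between 0.20 and 0.25, the class medians at 24 h moved by over 1.5 times with single arrays. Outside UBTF and RRP12, the 24 h differences ran between -0.52 for POLR1B (95% interval -1.21 to 0.18) and 0.41 for UTP15 (95% interval -0.12 to 0.93). With the replicate block RRP12 and BYSL rose (BYSL 0.32, adjusted p 0.0409) and UBTF fell, where 8.7% of named genes rose and 10.2% fell.

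The change in effect between 8 h and 24 h was tested as a contrast of its own. Its median over the 42 genes, 24 h effect minus 8 h effect, was -0.31, and 10 of the 42 values were above 0, as were 50% of those of named genes. In limma's fit 0 members passed, where 1.7% of named genes rose and 1.25% fell by adjusted p. At an unadjusted p under 0.05, 9 members were lower and 0 were higher. Of the 10467 named genes, 758 were lower and 917 higher at that p. With the replicate block the effects of UTP3 (-0.77), DDX21 (-0.73), GNL2 (-0.65), DDX10 (-0.61) and LTV1 (-0.60) were smaller at 24 h, with adjusted p-values between 0.0161 and 0.04, where 3.43% of named genes fell. The effects at 8 h and 24 h have separate controls. For the SCL60 controls at 24 h against 8 h, limma called 0 members and 0% of named genes in either direction. At an unadjusted p under 0.05, 1 member was higher and 2 were lower at 24 h. Of the 10467 named genes, 314 were higher and 202 lower at that p.

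Earlier times were compared with the 1 h controls, so the 0.5, 1 and 2 h comparisons share their 3 control arrays, and at 0.5 and 2 h they do not separate time from triptorelin. At 0.5 h and at 1 h limma called 0 of 42 members, where 0.105% and 0.592% of named genes rose. The member medians were -0.04 and 0.03. At an unadjusted p under 0.05 there were 0 members, against 89 and 185 named genes higher and 53 and 59 lower. At 2 h RIOK1 alone rose, where 1.14% of named genes did. Its signals at 2 h were 9.68, 9.95, 10.02 and 9.81 with triptorelin, against 9.35, 9.25 and 9.38 in the 1 h controls. No arrays overlapped, and the difference was 0.54 (SE 0.13, limma adjusted p 0.017). The call was lost without triptorelin 2 h replicate 2 or any of the 3 control arrays (replicates 2, 3 and 4). At 2 h 8 members were higher at an unadjusted p under 0.05, among them POLR1C (0.46), LTV1 (0.39), PNO1 (0.64), NOP16 (0.60) and NIP7 (0.55). At that p 536 of the 10467 named genes were higher and 719 lower. With the replicate block POLR1C rose as well (0.43, adjusted p 0.0258), where 2.08% of named genes rose.

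Across all 14 groups, the highest group mean was that of SCL60 with triptorelin at 8 h for 26 of the 42 genes. No other group was highest for more than 4 genes. The 8 h SCL60 controls were the lowest group for 12 genes, the largest number for any group. The shares of all named genes that were highest or lowest in these groups were not counted here. DDX21 ran through SCL60 triptorelin means of 11.94 ± 0.11, 12.37 ± 0.22, 12.31 ± 0.26, 12.90 ± 0.28 and 12.26 ± 0.51 at 0.5, 1, 2, 8 and 24 h, with SCL60 controls at 11.98 ± 0.25, 12.18 ± 0.30, 11.81 ± 0.26 and 11.89 ± 0.37 at 0, 1, 8 and 24 h (SD). LTV1 ran through 10.12 ± 0.17, 10.25 ± 0.15, 10.56 ± 0.13, 10.92 ± 0.27 and 10.40 ± 0.28 with triptorelin, and 10.03 ± 0.21, 10.17 ± 0.19, 9.97 ± 0.30 and 10.06 ± 0.20 in controls. Both genes were picked among those that passed at 8 h, and in both the 8 h triptorelin mean stood highest.

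**Figure D4:**
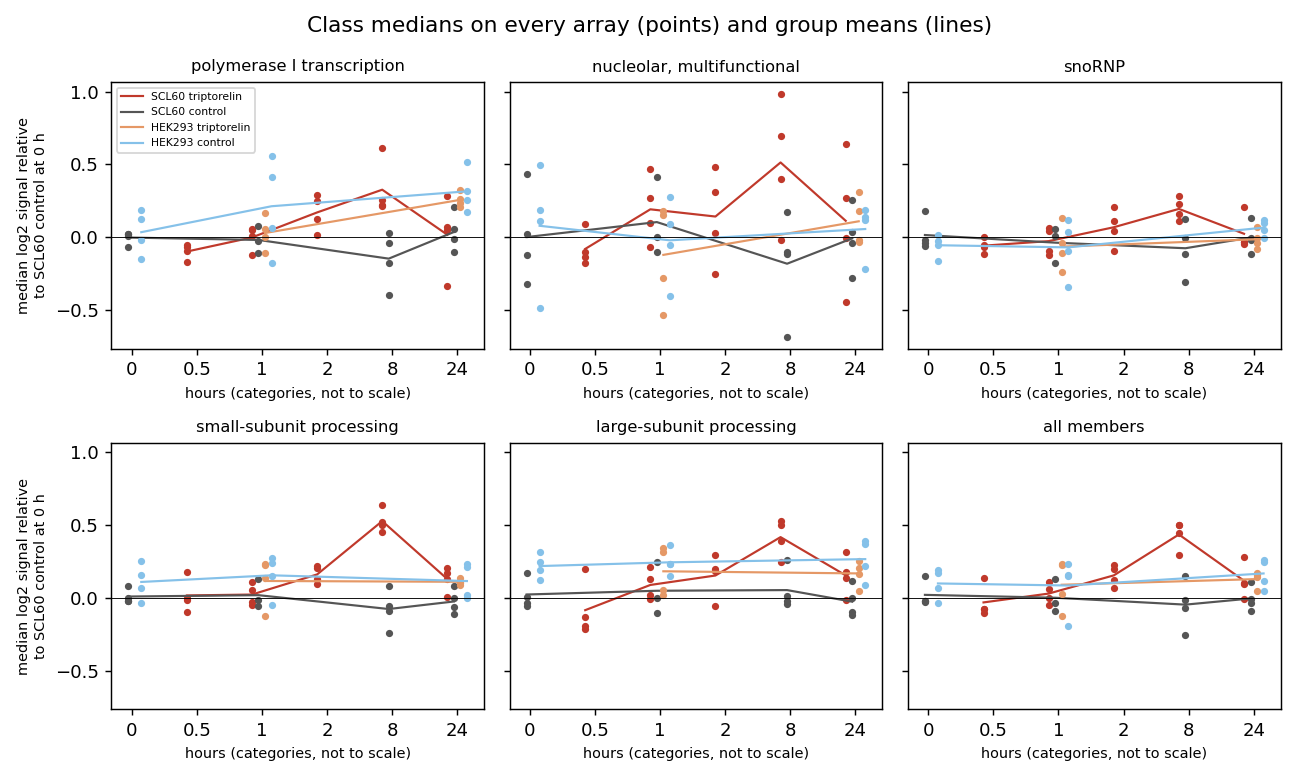
Median log2 signal of each class relative to the SCL60 control mean at 0 h (vertical axis) on every array (points) by hours of treatment (horizontal axis, categories not to scale), with lines through group means, for SCL60 triptorelin (red), SCL60 control (grey), HEK293 triptorelin (orange) and HEK293 control (blue). Over all members the 8 h SCL60 triptorelin arrays averaged 0.44, against -0.05 in the 8 h SCL60 controls.

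The plot of class medians by time shows the same values per array. Over all members the array medians relative to 0 h averaged -0.03 ± 0.11, 0.03 ± 0.07, 0.15 ± 0.07, 0.44 ± 0.10 and 0.12 ± 0.12 with triptorelin at 0.5, 1, 2, 8 and 24 h in SCL60 (SD, n = 4 each). The SCL60 controls averaged 0.02 ± 0.08, 0.00 ± 0.11, -0.05 ± 0.17 and -0.00 ± 0.08 at 0, 1, 8 and 24 h. For small-subunit genes the 8 h values were 0.53 ± 0.08 with triptorelin and -0.08 ± 0.13 in controls, and every triptorelin array lay above every control array. For large-subunit genes they were 0.42 ± 0.13 with triptorelin and 0.05 ± 0.14 in controls, and the lowest triptorelin array (0.25) lay just below the highest control array (0.26). For polymerase I genes they were 0.33 ± 0.19 with triptorelin and -0.15 ± 0.19 in controls. There too every triptorelin array lay above every control array, as over all members. The snoRNP and multifunctional medians overlapped between the groups.

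In HEK293 cells, which lack the transgene, limma called 0 of 42 members after triptorelin at 1 h and 0 at 24 h, where 0% of named genes were called at either time. At an unadjusted p under 0.05, 0 members were counted at 1 h and 3 at 24 h, all lower: PES1 (-0.54), NOB1 (-0.33) and UTP4 (-0.23). Of the 10467 named genes, 130 were lower and 75 higher at that p at 1 h, and 80 were lower and 136 higher at 24 h. The medians over the 42 members were -0.01 at 1 h and -0.05 at 24 h. RRP12 had 9.17, 9.23, 9.48 and 8.86 with triptorelin at 24 h, against 8.87, 9.35, 9.29 and 9.48 in HEK293 controls, with full overlap. HEK293 cells at 8 h were not analysed here, so the 8 h rises in SCL60 have no counterpart in HEK293.

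The difference between the lines was tested at 24 h as the SCL60 effect minus the HEK293 effect. In limma's fit 0 members passed, where 2.07% of named genes had a higher and 2.03% a lower effect in SCL60. At an unadjusted p under 0.05, 5 were higher in SCL60: RRP12 (0.76), NOB1 (0.63), LTV1 (0.50), UTP4 (0.46) and DDX47 (0.37). Of the 10467 named genes, 740 had a higher and 962 a lower effect in SCL60 at that p. With the replicate block RRP12 passed (adjusted p 0.00273), where 3.64% of named genes had a higher effect. Deviations of same-numbered arrays from their group means correlated less in HEK293 at 24 h (0.06 to 0.47) than in SCL60 (0.42 to 0.61). The control of the same number was the best match for 3 of 4 HEK293 triptorelin arrays and 4 of 4 in SCL60.

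In the 0 h controls SCL60 cells had lower BOP1 and DDX47 than HEK293 cells, and 0 members were higher in SCL60 by their brightest probes. Over all 58 detected member probes, 1 was higher and 4 were lower in SCL60. Among named genes 12.3% were higher and 7.97% lower in SCL60. BOP1 had 11.14, 11.12, 11.10 and 10.85 in SCL60, against 11.33, 11.83, 12.09 and 11.83 in HEK293. The lines did not overlap, and the difference was -0.72 (SE 0.14, limma adjusted p 8.25e-05). DDX47, a helicase of the small-subunit pathway, had 10.85, 10.94, 10.79 and 10.86 in SCL60, against 11.30, 11.15, 11.32 and 11.23 in HEK293. It was lower in every SCL60 array (-0.39, SE 0.12, adjusted p 0.0125). With the replicate block PNO1 (-0.63) and NOP10 (-0.42) were also lower and GAR1 (0.37) was higher, where 16.8% of named genes were higher and 13.1% lower.

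Other genes of the pathway, on lists that do not overlap the 50, were counted in the same fit at 8 h, where 11.6% of named genes rose and 14% fell. Of 11 other polymerase I genes 3 (27.3%) rose and 1 fell (median 0.31), among them TAF1A (1.30), POLR1F (0.91) and TAF1B (0.58); POLR1D fell by 0.36. TAF1A and TAF1B encode subunits of the factor that selects the polymerase I promoter. Of 35 other small-subunit genes 8 (22.9%) rose and 1 fell (median 0.23), with UTP25 (0.82), UTP14A (0.73) and DHX37 (0.72) highest among them, while EMG1 fell by 0.47. Of 42 other large-subunit genes 14 (33.3%) rose and 0 fell (median 0.29), with MAK16 (1.21), CCDC86 (1.06), NOC3L (0.91) and NMD3 (0.89) highest. Of 9 other snoRNP genes 2 (22.2%) rose and 1 fell (median -0.08), with NAF1, an assembly factor of box H/ACA particles, up by 1.41, SHQ1 up by 0.56 and ZNHIT3 down (-0.62).

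Neighbouring machinery was counted against the same shares of named genes. Of 12 tested exosome genes 1 rose (8.33%) and 2 fell (16.7%), and of 15 polymerase III subunit genes 1 rose (POLR3D, 0.86) and 1 fell (POLR3GL, -1.46), 6.67% each way. Of 56 tested cytosolic ribosomal protein genes 0 rose and 1 fell (RPL13, -0.61), with a median of -0.08. At an unadjusted p under 0.05, 0 ribosomal protein genes were higher and 2 were lower. Of the 10467 named genes, 1776 were higher and 2140 lower at that p. At 24 h, where 5.03% of named genes rose and 5.94% fell, the other snoRNP list had 1 rise (PIH1D1, 0.51), the other small-subunit list 1 (EMG1, 0.65) and the other large-subunit list 3 (RPF2, 0.55; PAK1IP1, 0.44; DDX31, 0.41), with 0 falls in each. Ribosomal protein genes then had 0 rises and 2 falls (RPS23, -0.53; RPL22, -0.51).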

How the data were processed

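Transcript levels were measured on 55 Illumina HumanHT-12 v3 arrays. Values came from the authors' table of non-normalized signals. In it each array has, per the file headers, a linear intensity and a detection p-value per probe (48803 probes). A deposited table of intensities normalized by the authors was taken to log2 and used as an alternative. Its median differences over all detected probes equalled those with no background correction, so these 2 settings may not be separate checks. Depth has no meaning here, and the number of arrays limits the precision. Signals were background-corrected with limma 3.58.1 (R 4.3.3; normexp, negative controls inferred from detection p-values, offset 16), then quantile normalized, and log2 was taken. Probes detected (p-value under 0.01) on at least 3 arrays were kept (16016). Of all probes, 28098 carried 1 gene symbol in the platform annotation, 13 several and 20692 none.

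All 55 arrays entered a single linear model with a mean for each group (lmFit, eBayes with an intensity trend), and p-values were adjusted by the Benjamini-Hochberg method over all detected probes. The pipeline was tested on simulated data. Values on every array are given for up to 3 members of each class with the largest differences among those that passed at 8 h or 24 h, for NCL, NPM1, FBL, UBTF, RRN3 and NAT10 whatever they did, and for members singled out after their values were seen. From each other list up to 4 passing members were named. The members and the lists were chosen with earlier results of these data known. Same-numbered SCL60 arrays deviated together from their group means (correlations of 0.23 to 0.40 at 8 h and 0.42 to 0.61 at 24 h, and above 0.1 in every SCL60 pair), so the replicate number was taken to pair them; in HEK293 the lowest was 0.06. Alternatives were other background, normalization, filter, probe and batch settings, and leaving out each array.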

Additional observations from a re-analysis of the deposited data

Results flagged for a closer look

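In 88 groups of 4 arrays looked at, 6 had one array far from the other 3; chance alone gives about 1 in 20. NAT10 was lowest on replicate 1 both with triptorelin at 8 h (10.6, the nearest other array 10.97) and with triptorelin at 24 h (10.5, the nearest 11.07). The polymerase I class median with triptorelin at 8 h was highest on replicate 1 (0.61, the nearest 0.26), and the snoRNP class median with triptorelin at 24 h on replicate 2 (0.21, the nearest -0.03). In the 24 h SCL60 controls replicate 2 was highest for GAR1 (12.18, the nearest 11.72) and for WDR12 (10.93, the nearest 10.41).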

How the results depend on the processing

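The count of 19 members that rose at 8 h was 10 when the compared groups alone were fitted and ran between 14 and 21 when single arrays were left out. The falling count at 8 h (0) was 1 with the replicate, hybridisation batch, chip or labelling batch as a block. The median of the multifunctional nucleolar genes at 8 h (0.70) was 0.29 with no filter on dim probes, which adds the undetected NPM1 probe. At 24 h the rising count (1) was 2 under cyclic loess, the replicate block and the chip block, 0 with no filter and 0 with the compared groups alone, and 0 to 1 without single arrays; the falling count (0) was 1 under the replicate and labelling blocks and 0 to 1 without single arrays. At 2 h the rising count (1) was 2 with 1 probe per gene and under the replicate, hybridisation batch and labelling batch blocks, 0 with no filter or the compared groups alone, and 0 to 1 without single arrays. For the SCL60 effect minus the HEK293 effect the rising count (0) was 1 under the replicate and labelling blocks and 0 to 1 without single arrays. For the 24 h effect minus the 8 h effect the falling count (0) was 5 under the replicate block and 0 to 1 without single arrays. For the lines at 0 h the count higher in SCL60 (0) was 1 under the replicate, hybridisation batch, chip and labelling batch blocks, and the count lower (2) was 4 under the replicate and labelling blocks. Without single arrays the 8 h polymerase I median ran between 0.12 and 0.40, and the 24 h medians ran between -0.049 and 0.17 for polymerase I, -0.055 and 0.31 for the multifunctional pair, -0.097 and 0.05 for snoRNPs, 0.052 and 0.20 for the large subunit and 0.068 and 0.20 for all members. NOLC1 at 24 h (-0.01) was 0.039 under cyclic loess and 0.032 with the chip block. Differences near 0 changed sign when single arrays were left out: FBL ran between -0.19 and 0.021 at 8 h and between -0.18 and 0.022 at 24 h, RRN3 between -0.049 and 0.35, NCL between -0.31 and 0.022, NOP58 between -0.20 and 0.24 and NOLC1 between -0.074 and 0.079, all at 24 h. The cause of these changes was not tested. The replicate block changed no other member's call than those given above. No scaling setting moved the median of all detected probes by over 0.1.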

Other observations

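MYC and its partners were measured in the same fit. MYC, the transcription factor known to bind many of their promoters, differed by 0.56 with triptorelin at 1 h (SE 0.16, limma adjusted p 0.185), by -0.57 at 2 h (adjusted p 0.0682) and by 0.19 at 8 h (adjusted p 0.392), and fell by 0.49 at 24 h (adjusted p 0.0293). Of the 7 tested genes on this list, 0 rose and 2 fell at 8 h, when 14% of named genes fell: MXD3 (-0.98) and MXD4 (-0.83), both of which encode antagonists that share the MYC partner MAX. At 24 h, when 5.94% of named genes fell, 0 rose and 3 fell: MXD4 (-0.67), MXI1 (-0.58) and MYC. MXD1, another of these antagonists, rose by 0.63 at 1 h (adjusted p 0.0351, where 0.592% of named genes rose) and by 0.79 at 2 h (adjusted p 0.00101, where 1.14% did), against the same 1 h controls.

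EMG1, which encodes a methyltransferase of the small-subunit ribosomal RNA, fell by 0.47 at 8 h and rose by 0.65 at 24 h. POLR3GL, a polymerase III subunit, averaged 7.52 ± 0.57 with triptorelin and 8.98 ± 0.14 in controls at 8 h, and 8.03 ± 0.16 with triptorelin and 9.24 ± 0.29 in controls at 24 h (SD, n = 4 each).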
